A study of Mus musculus with 23 samples.

Results

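Spleens of TLI-treated BALB/c mice gave 15 of the 23 RNA-seq libraries of the series, in 2 batches that can be set against each other. Batch 1 held 7 libraries, from pools 1 and 2 of mice, and batch 2 held 8, from pools 3 and 4. The members were taken from the labels, as all TLI libraries divided by their batch number. All mice were wild type by their labels, and TLI, the treatment of these mice, is not spelled out in the labels. Age, sex, dose and the time between treatment and sorting are not given for these mice in the sources used here. The study's methods name adult males of other mouse lines, and levels of sex-linked genes are given below. Each pool of mice was sorted into DC1a (CD8hi CD172-), DC1b (CD8Int CD172+), DC2 (CD8lo CD172hi) and DC3 (CD8- CD172lo) dendritic cells (DCs), except that pool 2 has no DC2 library here. The 8 untreated libraries, 2 of each subset, are all labelled batch 1, and are given only as a background.

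Every pool belongs to 1 batch, so that the batch and the mice it was made from cannot be told apart, and 2 pools a batch are the animal replicates. Each library is a bulk sample: fewer cells of a type and less RNA per cell cannot be told apart in it. Classical DCs sample antigens and show peptides to T cells on MHC molecules. The study gates them as lineage-negative CD11c+ MHCII+ cells, and divides them by CD8 and by CD172, the product of Sirpa. In the spleen they lie beside red cells, lymphocytes and macrophages, whose RNA a sort can carry along. Per the labels, cells were sorted straight into the buffer of the cDNA reaction, and cDNA was made with a SMARTseq kit, which primes on poly(A) tails; the study's methods describe lysis and purification of RNA with a column kit before that step.

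Libraries of batch 1 held 21107794 to 28433154 counts and those of batch 2 held 28456134 to 36997890, without overlap. Mitochondrially encoded genes took 0.712% to 2.22% of the counts in batch 1 and 3.31% to 5.28% in batch 2, and cytosolic ribosomal protein genes took 3.58% to 5.01% and 5.22% to 9.43%. In both measures every library of batch 2 was above every library of batch 1. With 2 pools against 2, the exact two-sided permutation test over pool means gave p = 0.33 for each of these 3 measures, the smallest value that it can give. In the untreated libraries the mitochondrial share was 1.37% to 3.53%, which overlaps batch 1 and batch 2.

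The labelled subsets were checked against their defining markers. Itgax, which encodes CD11c, was at 78.8 to 325 CPM (a gene's counts per 1000000 counts of its library) in all TLI libraries of both batches. Xcr1, a cDC1 chemokine receptor, was at 566 to 1090 CPM in DC1a of batch 1 and at 617 to 707 CPM in DC1a of batch 2, against 4.47 CPM and 19.4 to 37.5 CPM in DC2. The gate markers of DC1b were low in the libraries so labelled in batch 2. Sirpa was at 141 to 146 CPM in DC1b of batch 1 and at 5.10 to 6.55 CPM in DC1b of batch 2, and Cd8a at 302 to 342 CPM and at 0.327 to 79.0 CPM. In the fit over all subsets Sirpa had an adjusted p of 0.96 and Cd8a of 0.0938, and the difference between subsets had adjusted p = 0.923 for Sirpa and 1 for Cd8a (edgeR's quasi-likelihood test), so that neither test passed, and the values of these 2 against 2 libraries are given as a description. Untreated DC1b libraries were at 13.7 to 91 CPM for Sirpa and at 155 to 390 CPM for Cd8a. Sirpa was also at 9.22 CPM in 1 of the 2 DC2 libraries of batch 2, against 309 CPM in the other and 36.7 CPM in batch 1. Other markers went both ways. In DC1b Xcr1 was at 149 to 170 CPM in batch 1 and at 263 to 336 CPM in batch 2. Irf8, a transcription factor of the study's DC1 cells, was at 224 to 369 CPM and at 59.4 to 191 CPM. In DC2 Cd209a was at 853 CPM in batch 1 and at 1440 to 1670 CPM in batch 2. DC1b and DC2 of batch 2 are therefore named by their labels only. The summed B cell markers were at 42010 and 59690 CPM in the same 2 DC1b libraries of batch 2 and at 11280 and 29350 CPM in those of batch 1. They were also high in DC3, at 34660 and 56590 CPM in batch 2 and at 11410 and 21230 CPM in batch 1. Untreated DC3 libraries were at 21470 and 41290 CPM. Such sums weigh the most abundant genes, and the single genes mostly went the other way. Of the 15 B cell markers tested, 12 had a negative fitted log2 fold change of batch 2 versus batch 1, with a median of -0.94. In the fits within a subset the list median was 0.14 in DC1b and -1.13 in DC3.

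The TLI libraries parted by batch on their first axis of variation. On the first principal component, which held 23.2% of the variance of log2 CPM, batch 1 lay between -159 and -50.1 and batch 2 between 2.79 and 161. The second component held 12.5%. The median correlation of log2 CPM was 0.803 between libraries of the same subset and batch and 0.724 between libraries of the same subset from different batches, while different subsets of the same batch had 0.750. These correlations are over genes, which are not independent replicates, and are given as a description.

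**Figure D1:**
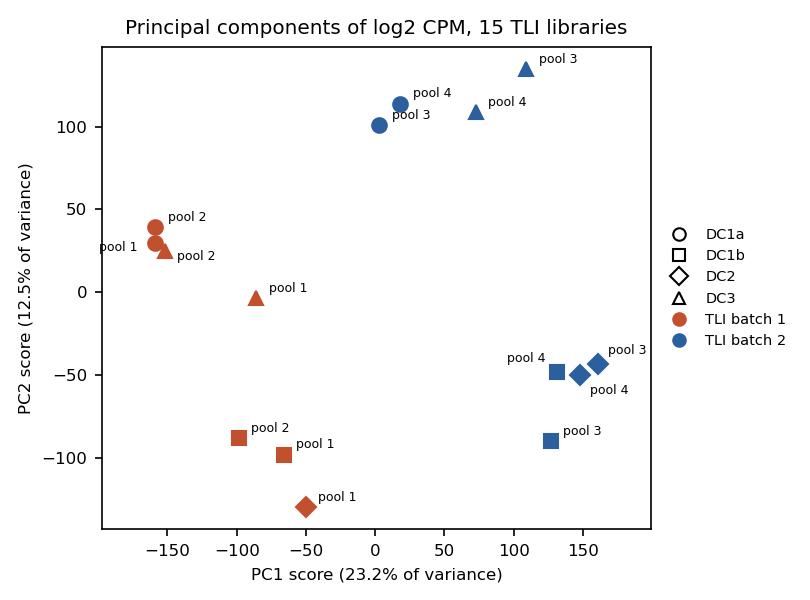
Scores of the 15 TLI libraries on the first and second principal components of log2 CPM, with the share of variance on each axis; the symbol gives the subset, the colour the batch and the text the pool. On PC1 all batch 1 libraries lie below -50 and all batch 2 libraries above 2.

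With the subset as a covariate, 3085 of 16400 genes tested (18.8%) differed between the batches at an adjusted p under 0.05 (edgeR's quasi-likelihood test, Benjamini-Hochberg), and such genes are named called below. Of these, 1617 (9.86% of those tested) were higher in batch 2 and 1468 (8.95%) were lower, and the difference of means had the same sign in all 4 subsets for 2887. All libraries of batch 2 were above all of batch 1 for 996 genes tested (6.07%) and below for 297 (1.81%); 898 of the genes called higher and 268 of those called lower were among them. The median log2 fold change over all genes was -0.26, and list medians below are to be read against it. Libraries of a pool share mice, and a fit of 1 mean per pool, 2 against 2, called 347 genes, of which 291 were also called over libraries. That fit used DC1a, DC1b and DC3 only, since pool 2 has no DC2 library, and without the DC2 libraries the fit over libraries called 2599 genes. Pools of the same batch were compared in the same kind of fit, with 3 or 4 libraries a pool: 1 gene of 17847, Gm10222, was called between pools 2 and 1, with 1311 at an unadjusted p under 0.05, and 0 between pools 4 and 3, with 685, whereas DESeq2 called 782 and 629.

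Gene length and base composition moved with the batch. Among protein-coding genes, 45% of the 60 with at most 500 exonic bases were called higher and 11.7% lower, whereas of genes of 2000 to 3000 bases 5.08% were higher and 17% lower. Of genes with a GC content under 40%, 26.2% were called higher and 1.52% lower, and at 56% to 60% GC the shares were 2.33% and 12.8%. Across 12148 protein-coding genes the Spearman correlation of the fold change was 0.151 with length and -0.275 with GC content, as a description over genes that share the same libraries. The relation to length did not run in 1 direction. The median log2 fold change was 1.35 at up to 500 bases, -0.99 at 2000 to 3000 bases and 0.04 above 10000 bases. A fit with an offset for length and GC in each library, added after the data were seen, called 1494 genes higher (9.11%) and 872 lower (5.32%), of which 1752 in all were also called without it. The offsets are median deviations of genes of like length and GC in these same libraries. The median log2 fold change of -0.0018 under this fit is therefore near 0 by construction. Because length and GC moved with the batch, the counts under this fit are given beside those of the gene groups below.

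**Figure D2:**
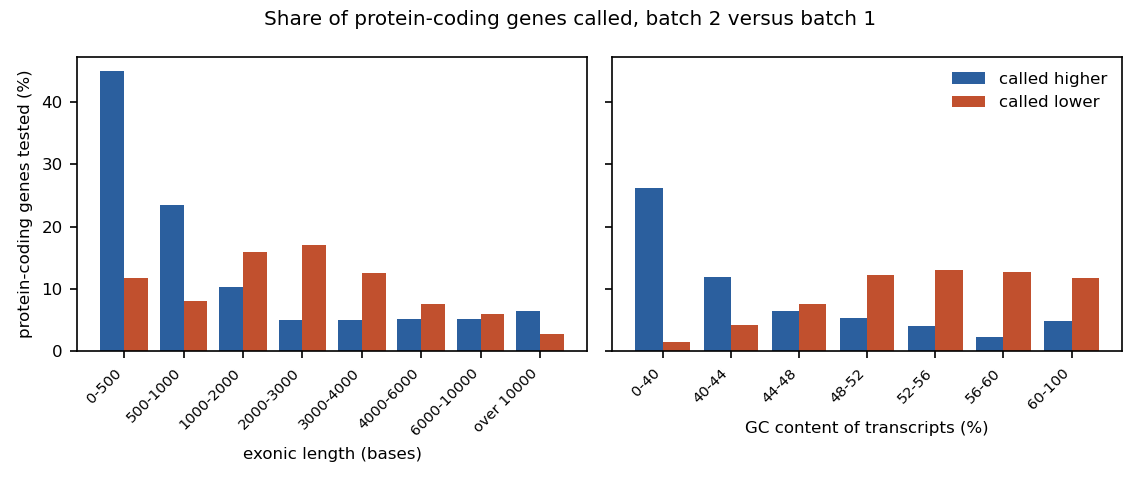
Share of protein-coding genes tested (%) that were called higher (blue) or lower (red) in batch 2, by exonic length in bases (left) and by GC content of the transcripts in percent (right). Short genes and genes of low GC were called higher most often, 45% and 26.2% in the lowest bins, and the share called lower was largest, 17%, at 2000 to 3000 bases.

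Most small nuclear RNAs (snRNAs), which take part in splicing, were higher in batch 2. Small nucleolar RNAs (snoRNAs) guide the processing of ribosomal RNA, and fewer of them were called. Mature forms of both kinds carry no poly(A) tail, and the transcripts of 3 that were called higher, chosen after their values were seen except Gm24265, are printed here with the longest run of A in capitals, to show how short the A stretches inside them are. The sequences are the GENCODE M21 transcripts on GRCm38: Gm24265, an snRNA gene, lies at chr5:115489459-115489599 on the + strand, Rnu2-10, a U2 RNA, at chr11:101658238-101658428 on the + strand, and Rnu3b1, a U3 RNA for ribosomal RNA processing, at chr11:87443237-87443451 on the + strand.
Gm24265: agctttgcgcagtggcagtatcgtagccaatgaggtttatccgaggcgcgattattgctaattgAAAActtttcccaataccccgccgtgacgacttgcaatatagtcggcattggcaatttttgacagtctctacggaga
Rnu2-10: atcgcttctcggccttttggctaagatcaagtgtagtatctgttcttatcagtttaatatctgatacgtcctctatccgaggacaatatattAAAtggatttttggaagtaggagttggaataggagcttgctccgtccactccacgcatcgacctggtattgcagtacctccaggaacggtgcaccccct
Rnu3b1: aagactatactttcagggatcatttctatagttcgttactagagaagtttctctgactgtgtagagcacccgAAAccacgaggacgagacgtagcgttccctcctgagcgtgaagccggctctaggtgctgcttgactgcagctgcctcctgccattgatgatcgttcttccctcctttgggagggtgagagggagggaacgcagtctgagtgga
Their longest runs of A were 4, 3 and 3 bases. Over the 52 snRNA genes called higher the longest run was 2 to 8 bases with a median of 3, and over the 16 that were not called it was 2 to 5 bases with a median of 4.

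Of 69 snRNA genes tested, 52 (75.4%) were called higher in batch 2 and 1 lower, with a median log2 fold change of 3.90, and with the length and GC offsets 45 were higher and 2 lower (median 3.08). Of 92 snoRNA genes 19 were called higher and 5 lower, with a median of 0.60, whereas with the offsets 13 were higher and 8 lower and the median turned to -0.61. Of 26 miscellaneous small RNAs 13 were called higher and 0 lower (9 and 0 with offsets). Together such genes took 0.00902% to 0.0420% of counts in batch 1, 0.112% to 0.444% in batch 2 and 0.0354% to 0.0728% in untreated libraries. Gm24265 was at 0.106, 0.770 and 2.68 CPM (lowest, median and highest) in batch 1 and at 27.2, 128 and 200 CPM in batch 2, with a log2 fold change of 6.98 ± 0.53 (SE) and adjusted p = 1.9e-05. The groups did not overlap, and the lowest 2 libraries of batch 2 were both DC1a. Rnu2-10 rose from 0.331, 1.03 and 5.19 CPM to 20.1, 96.2 and 214 CPM (5.43 ± 0.45, adjusted p = 3.07e-05). These calls, and that of Rnu3b1, held in every refit that left out 1 library. Rnu3b1 was higher by 4.75 ± 0.37 on the log2 scale, but 100% of its 76-base windows are also in Rnu3b2, Rnu3b3 and Rnu3b4, so that its own count is uncertain. Rn7sk, the 7SK RNA that holds back transcription elongation, was at 8.60, 11.4 and 25.7 CPM in batch 1 and at 102, 157 and 228 CPM in batch 2 (3.49 ± 0.26, adjusted p = 1.9e-05); it was named after its values were seen. In untreated libraries Rn7sk was at 25.3 to 157 CPM, which overlaps both batches.

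Mitochondrially encoded messages, the subunits of the respiratory chain made inside the organelle, were higher in batch 2 for 12 of 13 genes, with a median log2 fold change of 1.79, and mt-Nd3 had adjusted p = 0.0779. Their summed level was 6518 to 19800 CPM in batch 1, 25750 to 45130 CPM in batch 2 and 11500 to 29770 CPM in untreated libraries. mt-Nd2, of complex I, was at 61.3, 138 and 435 CPM in batch 1 and at 713, 1190 and 2100 CPM in batch 2 (2.63 ± 0.39, adjusted p = 0.00103). mt-Co3, of complex IV, was at 1380, 1770 and 4380 CPM and at 6490, 8110 and 10900 CPM (1.79 ± 0.30, adjusted p = 0.00179). Both genes were without overlap between the batches, and all batch 2 libraries were above batch 1 for 10 of the 13; 10 were called higher with the length and GC offsets. Subunits of the respiratory chain encoded in the nucleus were called higher for 39 of 79 and lower for 12, with offsets 48 and 5. The median exonic length was 1237 bases for those higher and 2593 bases for those lower. Ndufa1, a small complex I subunit, rose from 155, 292 and 478 CPM to 977, 1060 and 1580 CPM (2.05 ± 0.24, adjusted p = 0.000215), whereas Atp5b, the catalytic beta subunit of ATP synthase, had a log2 fold change of -2.03 ± 0.33 (adjusted p = 0.00166), also without overlap.

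Cytosolic ribosomal protein genes were called higher for 49 of 81 and lower for 1, Rps2, with a median of 0.85, and with the offsets for 67 and 0, where Rps2 turned to 0.39. Their summed level was 35760 to 50070 CPM in batch 1, 52180 to 94260 CPM in batch 2 and 34250 to 83060 CPM in untreated libraries. Rps24 was at 248, 373 and 583 CPM in batch 1 and at 1040, 1360 and 1650 CPM in batch 2 (1.78 ± 0.22, adjusted p = 0.000325). Processed pseudogenes, of which many copy such messages, were called higher for 487 of 1645 (29.6%) and lower for 135 (8.21%), but with the offsets for 175 and 226, where the median went from 0.64 to -0.06; reads of a parent gene and its copies can be split between them. Replication-dependent histone genes, whose messages end in a stem loop rather than a poly(A) tail, were called higher for 17 of 61 and lower for 6. The 17 were H2B and H4 genes, such as Hist1h4n (3.17), and the 6 were H2A genes, such as Hist1h2ap (-1.64), both as log2 fold changes; the copies of each kind are near identical, so that single members are uncertain. With offsets 8 were higher and 10 lower.

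Both inducible Hsp70 genes rose in batch 2. Heat shock proteins are chaperones that refold damaged proteins, and the Hspa1a (chr17:34969190-34972156) and Hspa1b (chr17:34956436-34959238) genes, both on the - strand of GRCm38, are nearly silent in unstressed cells. Hspa1a was at 3.85, 11.4 and 32.8 CPM in batch 1 and at 190, 287 and 499 CPM in batch 2 (4.34 ± 0.34, adjusted p = 1.9e-05), and at 4.16 to 32.2 CPM in untreated libraries. Hspa1b was at 1.06, 11.4 and 31.7 CPM and at 241, 586 and 1130 CPM (5.27 ± 0.52, adjusted p = 8.96e-05), and at 1.40 to 39.2 CPM in untreated libraries. Both genes were higher in every library of batch 2 than in any other TLI or untreated library, and both were also called in the fit of pool means (adjusted p = 0.0428 for each). They share 52.5% of the 76-base windows of Hspa1a, so that the part of each is uncertain, and Hspa1a also overlaps the annotated gene Gm20481. Other heat shock genes moved less: Hspe1, a mitochondrial chaperonin, was higher by 1.21 ± 0.26 (adjusted p = 0.00767), Dnaja1, a co-chaperone, had -0.80 ± 0.18 (adjusted p = 0.0107), and Hsp90ab1, the constitutive Hsp90, had -0.86 ± 0.17 (adjusted p = 0.00474) but 0.13 with the offsets. Dnajb1 at -0.30 and Hspa8 at -0.42 did not pass (adjusted p = 0.445 and 0.0917) and had 0.70 and 0.20 with the offsets. In all 3 of 11 genes were called higher and 2 lower, with offsets 4 and 1.

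The promoter is shown because both genes rose together and nearly share it. The 250 bases before the start of Hspa1a (RefSeq, GRCm38.p6, chr17:34972157-34972406 on the - strand) hold 1 match, in capitals, to GAANNTTC, the letters of 2 facing units of the heat shock element, a pattern that reads the same on both strands.
Hspa1a promoter: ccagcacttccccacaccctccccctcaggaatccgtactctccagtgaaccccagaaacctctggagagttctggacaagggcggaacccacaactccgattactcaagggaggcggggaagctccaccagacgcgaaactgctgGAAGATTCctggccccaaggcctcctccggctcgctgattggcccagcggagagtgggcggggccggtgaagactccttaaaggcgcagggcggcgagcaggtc
The match starts at base -104 from the start in both genes, and the promoters are the same at 247 of these 250 bases. Of 32851 RefSeq promoters of 300 bases, 2582 (7.9%) hold the pattern. Hspe1, called higher, also holds 1 match, at -84, and so does 1 of the 3 listed promoters of Dnaja1, called lower, at -124, and a match is a description of letters only.

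Markers of red cells, T cells and NK cells were lower in batch 2, with the lowest medians of all lists. Erythroid genes were called lower for 11 of 12, with a median log2 fold change of -7.23, or -6.60 with genes at 0 in batch 2 set to their bound, and with offsets again 11. Their summed level was 20190 to 134600 CPM in batch 1, 144.8 to 7170 CPM in batch 2 and 57.15 to 2292 CPM in untreated libraries, and in batch 1 the 4 libraries of pool 1 (48440 to 134600 CPM) were above the 3 of pool 2 (20190 to 24220 CPM). Hbb-bs, a beta globin, was at 5350, 12900 and 37000 CPM in batch 1 and at 47.1, 226 and 1750 CPM in batch 2 (-6.41 ± 0.95, adjusted p = 0.00101). Hba-a1, an alpha globin that shares 62.0% of its windows with Hba-a2, was at 6400, 16800 and 45200 CPM and at 41.6, 394 and 2330 CPM (-6.10 ± 0.94, adjusted p = 0.00122). The batches did not overlap for either gene, and batch 1 was also above every untreated library (815 CPM at most for Hba-a1). Klf1, a transcription factor of red cell precursors, was at 7.91, 15.9 and 201 CPM in batch 1 and at 0 in all 8 libraries of batch 2, at least 396-fold lower against a floor of 3 counts in a library (0.0811 to 0.105 CPM in batch 2), and at least 144-fold without DC1a of pool 1, which held the highest value. Rhd, of the Rh blood group, fell from 34.2, 120 and 613 CPM to at most 0.0893 CPM.

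**Figure D3:**
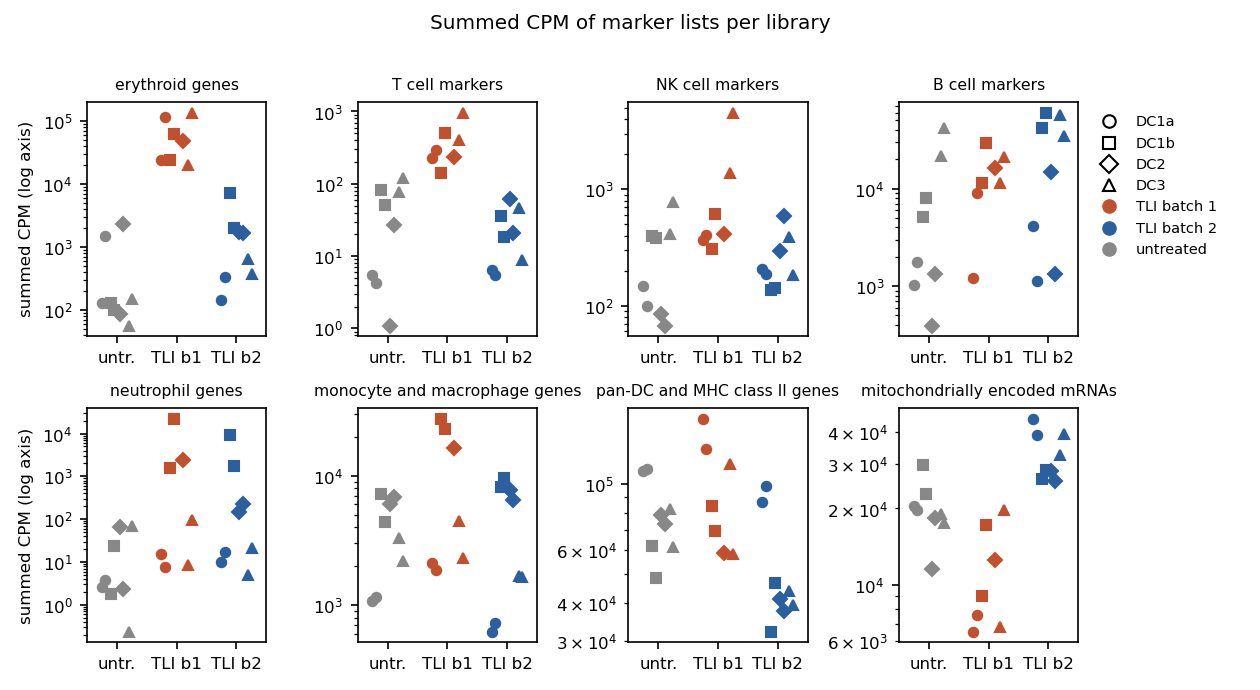
Summed CPM (log axis) of 8 gene lists in each of the 23 libraries, untreated (grey), TLI batch 1 (red) and TLI batch 2 (blue), with the symbol giving the subset. Erythroid and T cell sums of batch 1 lie above all of batch 2, mitochondrial sums of batch 1 lie below all of batch 2, and B cell sums overlap.

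T cell markers were called lower for 11 of 16 genes, with a median of -7.13 (8 with offsets), and their summed level was 142.2 to 957.9 CPM in batch 1 and 5.46 to 61.16 CPM in batch 2. Trbc2, a constant part of the T cell receptor beta chain, was at 18, 48.7 and 149 CPM in batch 1 and at 0 in 7 of 8 libraries of batch 2, the other, DC3 of pool 4, holding 1.42 CPM (-10.46 ± 1.40, adjusted p = 0.00057). Trac, of the alpha chain, was at 5.87, 25.3 and 54.6 CPM and at 0 in all of batch 2, at least 273-fold lower. Cd3e, of the CD3 complex, had a median of 15.1 CPM in batch 1 and at most 0.138 CPM in batch 2. NK cell markers were called lower for 8 of 10, with a median of -6.70 (6 with offsets). Ncr1, an activating NK receptor, was at 9.95, 38.3 and 1110 CPM in batch 1 and at 0 to 5.73 CPM in batch 2 (-10.28 ± 2.02, adjusted p = 0.00451). The summed NK markers overlapped between the batches, at 305.3 to 4552 CPM in batch 1 and at 135.7 to 589.6 CPM in batch 2. They were highest, 4552 and 1391 CPM, in the DC3 libraries of batch 1. In DC2 they were at 416.7 CPM in batch 1 and at 589.6 and 294.7 CPM in batch 2. Ifng, the cytokine of T and NK cells, was at 1.91, 6.47 and 86.2 CPM in batch 1 and at 0 in all of batch 2, at least 184-fold lower, or 78.2-fold without DC3 of pool 1.

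Markers of other cells differed in part. Monocyte and macrophage genes were called lower for 7 of 17 (7 with offsets), with a median of -1.79. C1qc, a chain of complement C1q made by tissue macrophages, was at 2.43, 25.8 and 509 CPM in batch 1 and at 0, 0.120 and 59.9 CPM in batch 2 (-5.76 ± 1.14, adjusted p = 0.00479). Lyz2, lysozyme of myeloid cells, was at 1180, 3060 and 23500 CPM and at 366, 2970 and 7990 CPM (-1.43 ± 0.14, adjusted p = 9.15e-05); the ranges overlap across subsets, and within each subset every library of batch 2 was lower. Neutrophil genes were called lower for 2 of 14 (3 with offsets), Lcn2 and Ngp, which is 14.3% against 8.95% of all genes tested. Ngp was at 7400 CPM in 1 DC1b library of batch 1 against a median of 1.80 CPM, and its call was lost without that library and with the pool as a block (adjusted p = 0.21, limma-voom). B cell markers, plasma cell markers and Y-linked genes had 0 calls of 15, 7 and 4 genes in edgeR, with 2, 0 and 1 at an unadjusted p under 0.05. DESeq2 called 3, 1 and 0, each lower in batch 2. With the offsets none of these 3 lists had a call in edgeR. The summed Y-linked genes were at 129.7 to 215.6 CPM in batch 1 and at 123.2 to 322.2 CPM in batch 2. Xist was at 0.26 CPM at most and at 0.4154 CPM at most, so that all TLI libraries had the pattern of male mice. Of 5 platelet genes 1, Ppbp, was called lower, and again 1 with the offsets.

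Immunoglobulin kappa variable segments made up most of the largest rises, and their high values lay in some libraries of batch 2 and not in others. Of the 12 largest increases by the naming rule, 8 were Igkv genes and 1 was Gm43218, another immunoglobulin variable segment on chromosome 6. Igkv12-98 was at 0 in all libraries of batch 1 and at 0.842, 1.36 and 3400 CPM in batch 2, with the highest value in DC1b of pool 4, and it was at 0 in all untreated libraries. That is at least 3014-fold higher than the floor of batch 1, but at least 22-fold without that 1 library. Outside DC1b it held a near-even 31 to 61 counts in each library of batch 2. The source of these low counts was not tested, and the floor, which covers counting error only, does not allow for it. Igkv12-44 was at 0 to 0.237 CPM in batch 1 and at 4.32, 5.15 and 4910 CPM in batch 2, where DC1b of pool 3 and DC3 of both pools held the high values (15.31 ± 1.72, adjusted p = 0.000188), and it reached 701 CPM in an untreated library. The remaining libraries of batch 2 held a near-even 146 to 178 counts of it. Igkv6-15 reached 16700 CPM in DC3 of pool 4 against a median of 15.6 CPM, and its adjusted p was 0.00149, or 0.133 with the pool as a block. Igkv3-4 went the other way and was among the 12 largest decreases. It held 12160 counts in DC2 of pool 1, and 20240 and 104657 counts in DC1b and DC3 of pool 2. The remaining libraries of batch 1 held 18 to 78 counts of it, and those of batch 2 held 0 to 64. The constant segment Igkc did not pass (0.61 ± 0.69, adjusted p = 0.586), with means of 10062 and 23026 CPM, and had -0.54 with the offsets. Over all 127 kappa, lambda and heavy variable segments tested, 12 (9.45%) were called higher and 4 (3.15%) lower, with offsets 8 and 5. The share called higher was near the 9.86% of all genes tested, and the share called lower was under their 8.95%.

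Most pan-DC and MHC class II genes were called lower in batch 2. Of these genes 9 of 13 were called lower and 0 higher, with a median of -1.04, while with the offsets 5 were lower and 2 higher, and the pool means called 4 lower. Their summed level was 58170 to 164300 CPM in batch 1, 32110 to 97930 CPM in batch 2 and 48640 to 112200 CPM in untreated libraries. Cd74, the invariant chain that guides class II molecules, was at 12300, 30000 and 58300 CPM in batch 1 and at 4700, 10900 and 17200 CPM in batch 2 (-1.71 ± 0.27, adjusted p = 0.00133; 0.0387 with offsets). The groups overlapped across subsets, and within each of the 4 subsets every batch 2 library was below every batch 1 library. H2-Eb1, the class II E beta chain, was at 3350, 7900 and 18300 CPM and at 1360, 2600 and 4230 CPM (-1.75 ± 0.21, adjusted p = 0.000314). H2-DMb1, which helps load peptides onto class II molecules, was at 464, 656 and 1750 CPM and at 62.1, 281 and 319 CPM without overlap (-1.98 ± 0.30, adjusted p = 0.00102). H2-Ab1 at -1.45 and H2-DMa at -1.02 were called lower but turned to 0.04 and 0.05 with the offsets. Itgax and Cst3, also of this list, did not pass, and were the 2 called higher with the offsets. Genes of MHC class I and peptide loading were called lower for 8 of 13 with a median of -0.87, but with the offsets 2 were higher, 0 lower and the median was 0.20. The summed level of the class I list was 7314, 10700 and 11470 CPM in batch 1 and 4634, 11640 and 14260 CPM in batch 2 (lowest, median and highest), so that the batches overlapped.

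**Figure D4:**
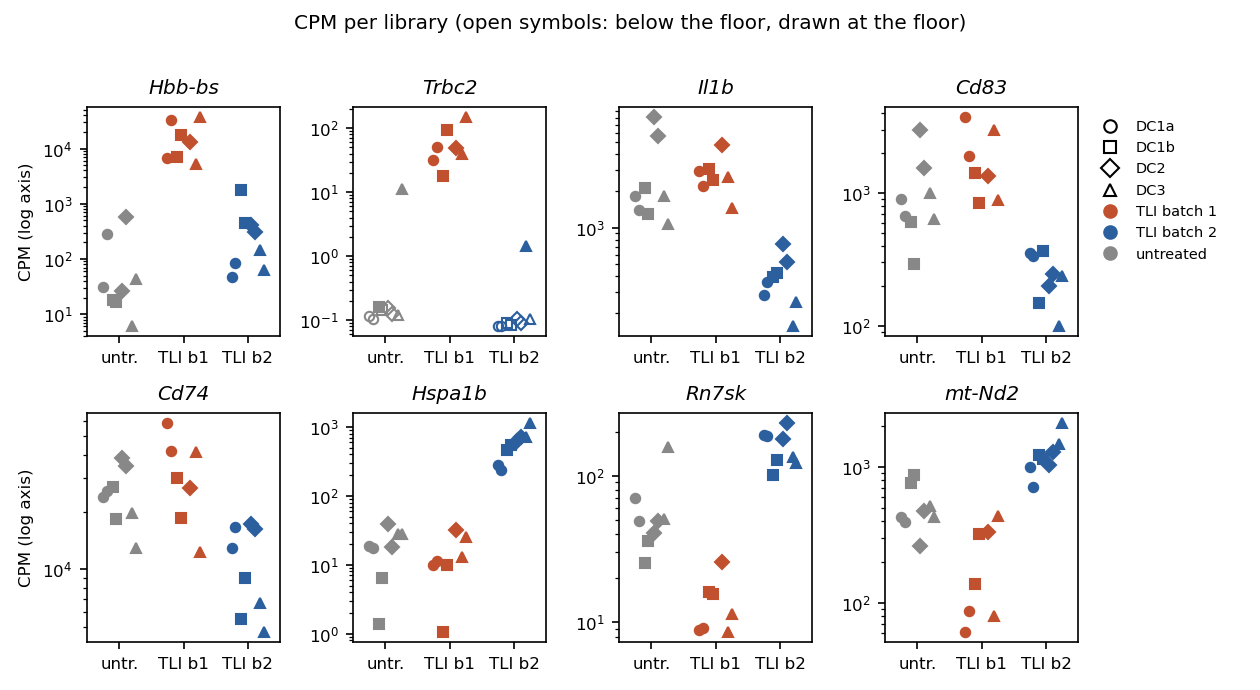
CPM (log axis) of 8 genes in each of the 23 libraries, untreated (grey), TLI batch 1 (red) and TLI batch 2 (blue), with the symbol giving the subset; open symbols are values below the floor of 3 counts, drawn at the floor. Hbb-bs, Trbc2, Il1b and Cd83 show batch 2 below all of batch 1, and Hspa1b, Rn7sk and mt-Nd2 show it above.

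Il1b had the smallest p of all 16400 genes. It lies at chr2:129364570-129371139 on the - strand of GRCm38, encodes interleukin-1 beta, a pro-inflammatory cytokine induced by NF-kB, and was at 1450, 2630 and 4760 CPM in batch 1, at 157, 376 and 742 CPM in batch 2 and at 1080 to 8070 CPM in untreated libraries. The log2 fold change was -3.02 ± 0.17 (adjusted p = 3.86e-06), without overlap, and it was called in each subset: -2.87 in DC1a, -2.78 in DC1b, -2.94 in DC2 and -3.35 in DC3. The DC2 value rests on 1 library of batch 1, which is assumed to vary like the other groups. It overlaps Il1bos on the other strand, whose reads cannot be told apart without strand. Of NF-kB target genes 10 of 21 were called lower and 0 higher, with a median of -1.32 (5 lower with offsets, median -0.59). Their summed level was 4403 to 10890 CPM in batch 1, 1063 to 3700 CPM in batch 2 and 3385 to 17560 CPM in untreated libraries. Nfkbia, the inhibitor that shuts NF-kB off, was at 514, 696 and 1420 CPM and at 71.5, 189 and 372 CPM (-2.38 ± 0.29, adjusted p = 0.000314). Ccl4, a chemokine for T cells and monocytes, had -1.40 ± 0.29 (adjusted p = 0.0063).

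Genes of mature DCs were called lower for 5 of 15 and higher for 0, with a median of -1.30 (2 lower with offsets). Cd83, a surface marker of maturation, was at 839, 1420 and 3730 CPM in batch 1 and at 100, 240 and 367 CPM in batch 2 without overlap (-2.85 ± 0.34, adjusted p = 0.00028). Ccr7, the receptor that guides DCs to the T cell zone, was at 56.7, 216 and 1260 CPM and at 0.285, 30.3 and 132 CPM (-3.77 ± 0.67, adjusted p = 0.00253), and the DC1a libraries held the highest values of batch 1. Cd14, a co-receptor for lipopolysaccharide, was at 78.8, 272 and 764 CPM and at 4.74, 15.3 and 49.9 CPM (-4.37 ± 0.40, adjusted p = 6.85e-05); it is in none of the lists and was named after its values were seen. In untreated libraries Cd14 was at 26.7 to 104 CPM, between the batches in its median of 51.4 CPM.

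Immediate early genes, which answer a stimulus within minutes, moved in both directions. Of 21, 8 were called lower and 1, Jun, higher, with a median of -1.25, but with the offsets 3 were lower and 5 higher. Btg2, an antiproliferative gene, was at 479, 662 and 1090 CPM in batch 1 and at 166, 218 and 339 CPM in batch 2 without overlap (-1.82 ± 0.21, adjusted p = 0.000238). Nr4a2, a nuclear orphan receptor, was at 72.0, 120 and 234 CPM and at 13.9, 29.3 and 46.4 CPM (-2.15 ± 0.28, adjusted p = 0.000494). Jun, a part of the AP-1 factor, was at 43.0, 66.8 and 146 CPM and at 86.2, 178 and 354 CPM (1.14 ± 0.23, adjusted p = 0.00468), and overlaps Junos. Ier5, an immediate early gene outside the list that was named after its values were seen, was at 57.5, 100 and 145 CPM and at 336, 678 and 820 CPM (2.54 ± 0.21, adjusted p = 3.07e-05), against 201 to 336 CPM in untreated libraries.

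Of cell cycle genes 8 of 24 were called lower and 0 higher, with a median of -1.41 (3 with offsets). Rrm2, of ribonucleotide reductase, was at 52.3, 99.8 and 434 CPM in batch 1 and at 6.03, 18.7 and 44.2 CPM in batch 2 (-2.48 ± 0.51, adjusted p = 0.00591), and Pcna, the sliding clamp of DNA polymerase, at 271, 342 and 469 CPM and at 146, 191 and 220 CPM (-0.95 ± 0.17, adjusted p = 0.00304). Both were without overlap. Of p53 target genes, which answer DNA damage, 4 of 19 were called lower and 0 higher, with a median of -0.72, and 2 lower and 1 higher with the offsets; Cdkn1a, the inhibitor p21, was at 53.2, 106 and 300 CPM and at 3.22, 27.1 and 134 CPM (-2.0 ± 0.43, adjusted p = 0.00798; 0.113 with offsets). Type I interferon-stimulated genes were called lower for 3 of 28 and interferon-induced GTPases for 5 of 16 (1 and 3 with offsets), with Isg15 not called (adjusted p = 0.184). The 10.7% of interferon-stimulated genes called lower was near the 8.95% of all genes tested, and the median of their summed level was 1689 CPM in batch 1 and 2000 CPM in batch 2.

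Lysosome genes were called lower for 10 of 15 (1 with offsets), glycolysis and hypoxia genes for 8 of 19 with 1 higher (2 and 1 with offsets), unfolded protein and amino acid response genes for 7 of 15 (5 with offsets), and cholesterol synthesis genes for 2 of 21 (0 lower and 1 higher with offsets). The 9.52% of cholesterol synthesis genes called lower was near that of all genes tested. Ldha, lactate dehydrogenase A, was at 243, 574 and 1290 CPM and at 58.4, 144 and 276 CPM (-2.09 ± 0.37, adjusted p = 0.00232), and Hk2, hexokinase 2, rose from 14.2, 27.3 and 105 CPM to 35.1, 104 and 357 CPM (1.44 ± 0.25, adjusted p = 0.00237). Herpud1, of endoplasmic reticulum protein disposal, was at 218, 294 and 777 CPM and at 32.1, 81.6 and 148 CPM (-2.40 ± 0.41, adjusted p = 0.00206). Circadian clock genes had 1 call in each direction among 15 (6.67%), Bhlhe41 higher and Bhlhe40 lower (1 and 1 with offsets). Glucocorticoid response genes had 1 of 9 (11.1%) lower, Errfi1 (0 with offsets). These shares were near or below those of all genes tested, 9.86% higher and 8.95% lower.

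DC lineage markers were called in both directions. Of 16 cDC1 markers 0 were called higher and 2 lower, Cadm1 and Ppt1, which is 12.5% against 8.95% of all genes. The median was -0.48 (2 higher and 1 lower with offsets, median 0.15). Xcr1, Clec9a and Batf3 did not pass. Of 14 cDC2 markers 2 were higher, Klf4 and Clec12a, and 2 lower, Ltb and Mgl2 (28.6% in all, against 18.8% of all genes), and again 2 higher but 1 lower with the offsets. Klf4, a transcription factor needed by a part of cDC2, was at 14.2, 65.1 and 173 CPM in batch 1 and at 23.8, 277 and 436 CPM in batch 2 (1.57 ± 0.24, adjusted p = 0.00121), with every batch 2 library above batch 1 within each subset. Of 11 plasmacytoid DC markers 1, Runx2, was higher (1 with offsets), and this 9.09% was near the 9.86% of all genes tested. The 3 nuclear long noncoding RNAs, Malat1, Neat1 and Kcnq1ot1, had 0 calls by edgeR or DESeq2, and 0 at an unadjusted p under 0.05, and 0 with the offsets.

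The fit of pool means called fewer genes in most of these lists. It called lower 11 of the 12 erythroid genes, 8 T cell markers, 3 NK cell markers, 4 immediate early genes, 3 mature DC genes, 2 NF-kB targets and 1 of the class I genes. It called higher 6 ribosomal protein genes, 5 mitochondrial messages and 3 respiratory chain subunits, with 2 such subunits lower. Lysosome, cell cycle, glycolysis and GTPase lists had 0 calls there, with 10, 14, 11 and 8 members at an unadjusted p under 0.05 (limma).

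**Figure D5:**
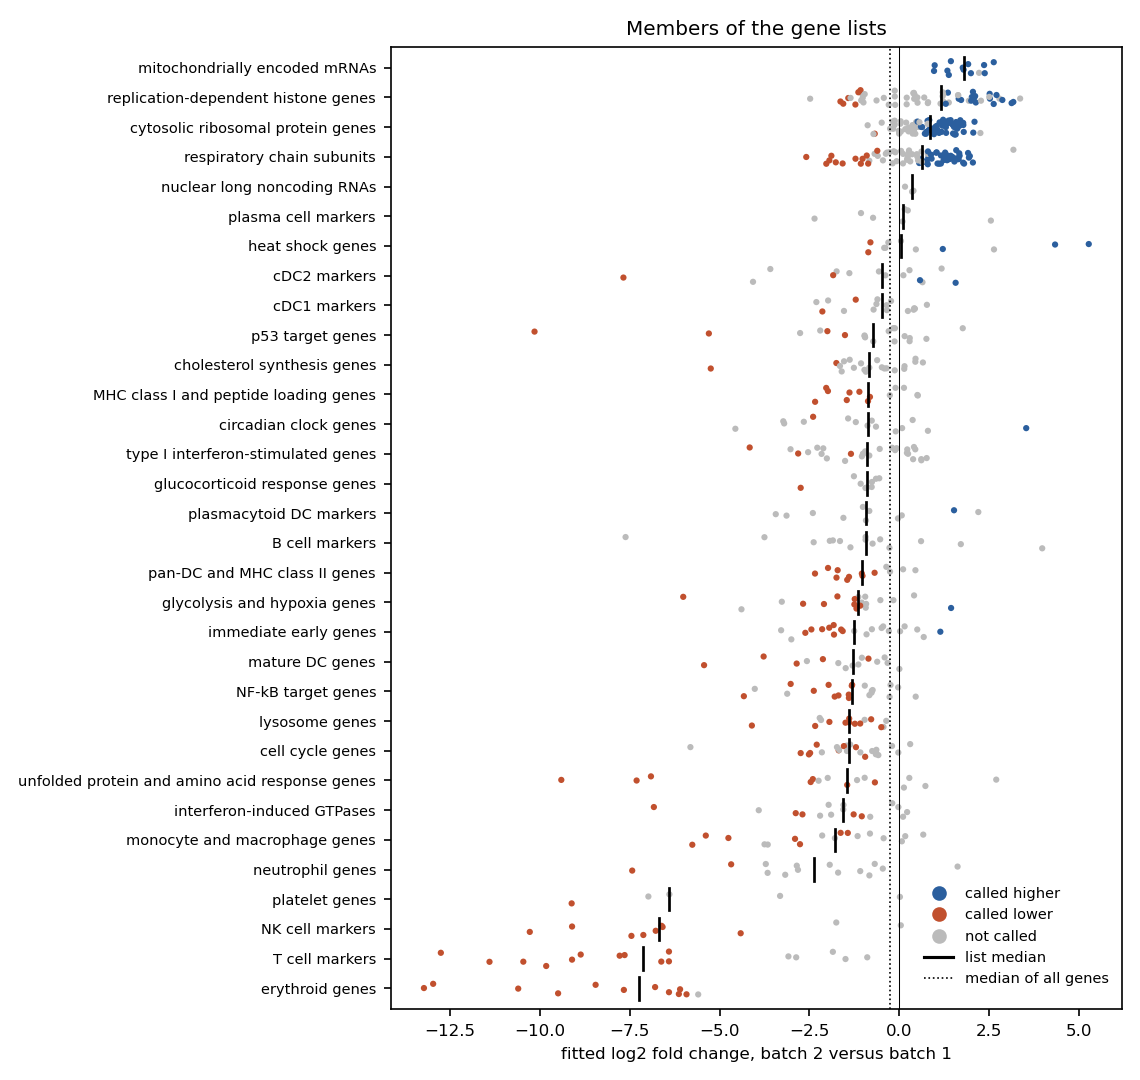
Fitted log2 fold change of batch 2 versus batch 1 (x axis) for each tested member of 32 gene lists (rows), blue where called higher, red where called lower and grey otherwise; black bars are list medians and the dotted line is the median of all genes. Fitted values of genes at 0 in a batch depend on a prior count. Erythroid, T cell and NK cell lists lie furthest left, at medians of -7.23, -7.13 and -6.70, and mitochondrial messages furthest right, at 1.79.

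The batch difference was next compared between subsets. A test of whether it differed between the 4 subsets called 0 of 20561 genes in edgeR, with 979 at an unadjusted p under 0.05, while DESeq2 called 471 and limma-voom with the pool as a block 72; the smallest adjusted p in edgeR was 0.0519, for Nudt14, Csf2rb and Ebp. Within a single subset 220 genes were called in DC1a (1.07%), 20 in DC1b (0.0973%), 19 in DC2 (0.0924%) and 29 in DC3 (0.141%), and 194 of the 220 in DC1a were higher. These counts rest on 1 or 2 libraries a batch and are not comparable between subsets: leaving out 1 library gave 0 to 485 calls in DC1a (0 without DC1a of pool 1), 2 to 80 in DC1b (2 without DC1b of pool 2), 3 to 68 in DC2 (3 without DC1a of pool 1) and 2 to 165 in DC3 (2 without DC3 of pool 4). Of the 3085 genes called over all subsets, the sign was the same in 98.6% for DC1a, 98.3% for DC1b, 95.8% for DC2 and 99.4% for DC3, as the fits share these libraries. Il1b and Gm9844 were called in all 4 subsets. In DC1a, DC1b and DC3, but not in DC2 where batch 1 has 1 library, Hspa1a had log2 fold changes of 4.24, 5.11 and 4.42 and Ier5 of 1.98, 2.78 and 3.07; in DC2 the values were 3.42 (adjusted p = 0.195) and 2.34 (adjusted p = 0.134).

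The untreated libraries, all of batch 1 by their label, were set beside both TLI batches. By mean log2 CPM over subsets, the untreated mean was between the batch means for 1448 of the 1617 genes higher in batch 2 (89.5%) and 1129 of the 1468 lower (76.9%), against 39.4% of genes not called. It was nearer to batch 1 for 1386 of the higher (85.7%), 778 of the lower (53%) and 56.8% of genes not called. These shares are descriptions, since a called gene has its batch means far apart by choice. Beside the genes above, Actb, beta-actin, was at 1380, 1670 and 2240 CPM in batch 1, at 2380, 3470 and 5800 CPM in batch 2 (1.10 ± 0.11, adjusted p = 9.15e-05) and at 1500 to 2750 CPM in untreated libraries. Tpt1, a translationally controlled protein, was at 475, 705 and 969 CPM, at 1820, 2200 and 2640 CPM (1.68 ± 0.16, adjusted p = 8.35e-05) and at 628 to 1300 CPM. Both were named after their values were seen, as abundant genes whose batches did not overlap. With counts thinned to the smallest library, an alternative chosen after seeing the data, 3022 genes were called, of which 2919 were also called at full depth. Mitochondrial share, small RNA share and the marker sums of red cells and T cells moved with the batch without overlap. The NK cell sums had a lower median in batch 2, with overlap. The part of these measures in the results was not tested.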

How the data were processed

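Dendritic cells were sorted from spleens, and the authors trimmed reads with Trimmomatic, aligned them to GRCm38 with HISAT2 and estimated counts per gene with StringTie, per the submitters' processing notes and the study's methods; the deposited estimated counts are whole numbers for 47729 gene IDs, of which 505 have no symbol in GENCODE M21. Whether counting used strand is not given in the sources used here, so overlapping and antisense genes share reads. Libraries were grouped by the labels' batch, pool and subset. Genes kept by filterByExpr were fitted with edgeR 4.0.16 (TMM, quasi-likelihood test, subset and batch), and DESeq2 1.42.0 and limma 3.58.1 (voom, pool as block by duplicateCorrelation) were alternatives, as were other filters, RLE factors, pool means, leaving out libraries, and length and GC offsets. The fits were tested on simulated data. The SE is the fold change divided by the root of its F. Libraries of a pool share mice, per the labels; deviations of pool mates correlated at -0.0176 to 0.154 over 9 pairs. Replicate libraries differed by more than sampling noise. Floors are 3 counts and cover counting error only; amplified reads are not independent molecules. Named genes are the 12 largest increases and decreases among called genes with a mean of at least 5 CPM and the same sign in all subsets, list members, and genes said to be named afterwards. The comparison of these libraries, which enter it by label, and the lists were chosen with earlier results of these data known.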

Additional observations from a re-analysis of the deposited data

How the results depend on the processing

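Direction and side of the threshold were kept for most named genes under most settings. The offsets for length and GC, chosen after seeing the data, turned Hsp90ab1 to 0.133, H2-D1 to 0.32, H2-Ab1 to 0.0446, H2-DMa to 0.0517, Rps2 to 0.39, Dnajb1 to 0.70 (0.0249 among coding genes of at least 1000 bases), Hspa8 to 0.20 and Igkc to -0.54 and gave 872 genes lower. The total of 3085 became 5405 with DESeq2 (3245 lower, 40% higher), 347 with pool means of DC1a, DC1b and DC3 (115 higher and 232 lower, 33.1% higher), and 1560 with protein-coding genes of at least 1000 bases (912 higher and 648 lower, fewer genes tested); without a filter 910 of 2368 were higher (38.4%), with limma-voom and no block 2211 were lower, and 63.1% of calls were higher with the offsets against 52.4%. Of the 122 named calls pool means lost 48 and the offsets 20. With the pool as replicate block limma-voom called 3897 genes over libraries, 885 in DC1a, 608 in DC1b, 580 in DC2, 675 in DC3 and 72 that differed between subsets, and lost Igkv13-85 (adjusted p = 0.104), Igkv12-89 (0.186), Igkv3-4 (0.0982), Birc5 (0.0513) and H2-D1 (0.0536); it lost no other named call than these, Igkv6-15 and Ngp. Leaving out 1 library gave 2259 to 3199 calls, none moved by over 1.5 times, and leaving out a whole pool gave 1613 (pool 1), 1028 (pool 2), 1275 (pool 3) and 649 (pool 4) calls, and over all of these 416 to 1697 genes were higher and 233 to 1548 lower; fewer libraries enter these fits. For the difference between subsets DESeq2 gave 471, the offsets 4 and leaving out 1 library 0 to 2 (2 without DC1b of pool 4). Within subsets DESeq2 gave 2157 calls in DC1a, 2016 in DC1b, 1296 in DC2 and 2319 in DC3, leaving out 1 library 0 to 485, 2 to 80, 3 to 68 and 2 to 165, RLE factors 96 in DC1a, and a fit to 1 subset's own libraries 1427 in DC1a, 0 in DC1b and 0 in DC3. Between pools DESeq2 gave 782 and 629, and between pools 2 and 1 a filter of 10 counts in every library gave 0. Sirpa, not called at 0.12, had -1.80 with limma-voom, -1.82 with the block, -0.74 with pool means, -0.42 without DC2 and -0.77 to 0.75 when 1 library was left out. The cause of these differences was not tested unless named. Depth limits what can be said of genes near the floors of 0.0811 to 0.142 CPM, and 2 pools a batch limit every call.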
